A study of Rattus norvegicus with 15 samples.

Results

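The stretch of rat chromosome 3 from 67 to 79 Mb on the rn4 assembly holds a large cluster of olfactory receptor genes, by general knowledge. Its regions were chosen by position alone: array probes on that stretch were joined into runs wherever the gap to the next probe was at most 500 bp, and only runs with 3 or more probes were retained. This gave 301 regions with 2879 probes, of 16782 regions with 171421 probes on the whole array. DNA methylation was profiled in peripheral blood of male Sprague Dawley rats aged 20 weeks, with 3 rats and 3 arrays in each of 5 groups. Controls received citric buffer by injection. All 4 diabetic groups received streptozotocin intravenously at 45 mg/kg, which destroys the beta cells that make insulin. One of these, the diabetic retinopathy model (DR model), was given distilled water. CaD rats received calcium dobesilate, a vasoprotective drug given in diabetic retinopathy, at a daily 0.25 g/kg, and LTF rats the Luo-tong herbal formula at a daily 2 g/kg, each together with 1.5 IU of insulin. The remaining group received another Chinese formula, here called the other formula, whose dose and insulin use are not stated in the labels. Effects of CaD or LTF and effects of insulin therefore cannot be told apart. The samples are blood, not retina, and a change in the share of blood cell types cannot be told apart from a change of methylation within a cell type.

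Olfactory receptors are G protein-coupled receptors that olfactory sensory neurons use to detect odorants. Each neuron expresses 1 receptor allele of the family and keeps the others silent in compact chromatin, and tissues outside the nose, blood among them, transcribe few of these genes. The genes lie in long tandem clusters formed by duplication. In mammals most methylated cytosines lie in CG dinucleotides, and methylated DNA immunoprecipitation (MeDIP) uses an antibody to methylated cytosine, so DNA with few CG pairs is recovered weakly even where those few are methylated.

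The files give probe positions but neither gene names nor probe sequences, so no region is tied here to a gene and the content of the interval was not checked against receptor genes. RefSeq annotation of a later assembly, GRCr8, served as background. It lists 1823 rat entries with an olfactory receptor symbol, of which 447 (24.5%) are on chromosome 3. The longest series there holds 310 receptor entries among 342, with at most 5 other genes between neighbours. The letters CG, which read the same on both strands, occurred a median of 1 time in the 300 bases around the starts of 1086 olfactory receptor genes and a median of 7 times around the starts of 32383 other genes. No CG was found in 100 of the 262 receptor promoters of chromosome 3 (38.2%), in 30.2% of all receptor promoters and in 4.64% of the others, and 94.5% of all promoters held at least 1. Median GC content was 33% in the receptor promoters of chromosome 3 and 52% in the other genes' promoters. Promoter here means the 300 bases around an annotated start. The stretches of a receptor gene of the long series and of another chromosome 3 gene are shown, each with the median number of CG pairs of its set. Both illustrate how little CG lies around an annotated receptor start. They run 5′ to 3′ with CG in capitals, from 250 bases before to 50 after the start, at chr3:94281455-94281754 on the minus strand (Olr621) and chr3:30409303-30409602 on the plus strand (Abo2), both on GRCr8.
Olr621: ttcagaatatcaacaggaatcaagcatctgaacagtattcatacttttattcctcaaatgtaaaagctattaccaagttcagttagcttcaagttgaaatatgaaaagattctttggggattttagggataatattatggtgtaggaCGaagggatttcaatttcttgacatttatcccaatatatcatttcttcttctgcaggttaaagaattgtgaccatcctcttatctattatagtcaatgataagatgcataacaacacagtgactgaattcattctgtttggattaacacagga
Abo2: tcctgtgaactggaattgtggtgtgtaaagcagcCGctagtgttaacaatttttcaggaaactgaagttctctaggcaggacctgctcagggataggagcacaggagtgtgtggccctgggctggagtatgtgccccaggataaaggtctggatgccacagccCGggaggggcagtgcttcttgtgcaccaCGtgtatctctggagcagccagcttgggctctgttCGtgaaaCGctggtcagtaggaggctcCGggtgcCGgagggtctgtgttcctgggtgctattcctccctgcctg
Neither sequence was matched to a probe. In Olr621 the bases from the start on begin with atg and hold no stop codon in that frame. Its annotated start may therefore be a start codon, and the stretch may miss the promoter. How many other receptor starts are of this kind was not checked. Olr621 holds 1 CG at a GC content of 32.3%, and Abo2 holds 7 at 56.7%.

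Each array measured 172669 probes in both channels, with Cy5 for MeDIP DNA and Cy3 for input DNA. All values below are log2 of MeDIP over input signal with the array's median probe set to 0, averaged over the probes of a region. Correlations of region values between arrays were 0.902 to 0.980, and no arrays were identical. The labels state biological replicates. The arrays were read in 6 scans. DR model replicate 2 and control replicate 1 were scanned alone, LTF had a scan to itself, and only scan 5 (control replicates 2 and 3, DR model replicate 1) held controls together with a diabetic sample. The labelled tissue was not checked against marker genes, since the files name none.

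Regions of the interval were mostly low. Their median log2 ratio over the 15 arrays was -0.96, with quartiles of -1.28 and -0.46, against -0.03 for the 16481 regions elsewhere. Only 34 of the 301 (11.3%) lay above 0, against 47.6% elsewhere, and 141 (46.8%) lay below -1, against 7.09% elsewhere. They were also crowded, at 25.1 regions per Mb with up to 45 in 1 Mb, against a median of 5 per occupied Mb elsewhere. Their size was ordinary: a median of 9 probes and 1661 bp, against 10 probes and 1655 bp elsewhere.

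The low level was not spread evenly. The 208 regions from 69 to 75 Mb had a median of -1.11, and 2 of them lay above 0, whereas the other 93 regions, toward both ends, had a median of -0.19 with 32 above 0. These bounds were set after the values were seen. By Mb, the median fell from -0.25 in the first (67 to 68 Mb) to -1.25 between 70 and 71 Mb, and stood at -1.19 between 73 and 74 Mb, -0.17 between 75 and 76 Mb and 0.14 between 76 and 77 Mb. Neighbouring regions resembled each other, with a correlation of 0.60 over 300 neighbouring pairs, a description over regions that share arrays and probe composition.

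**Figure D1:**
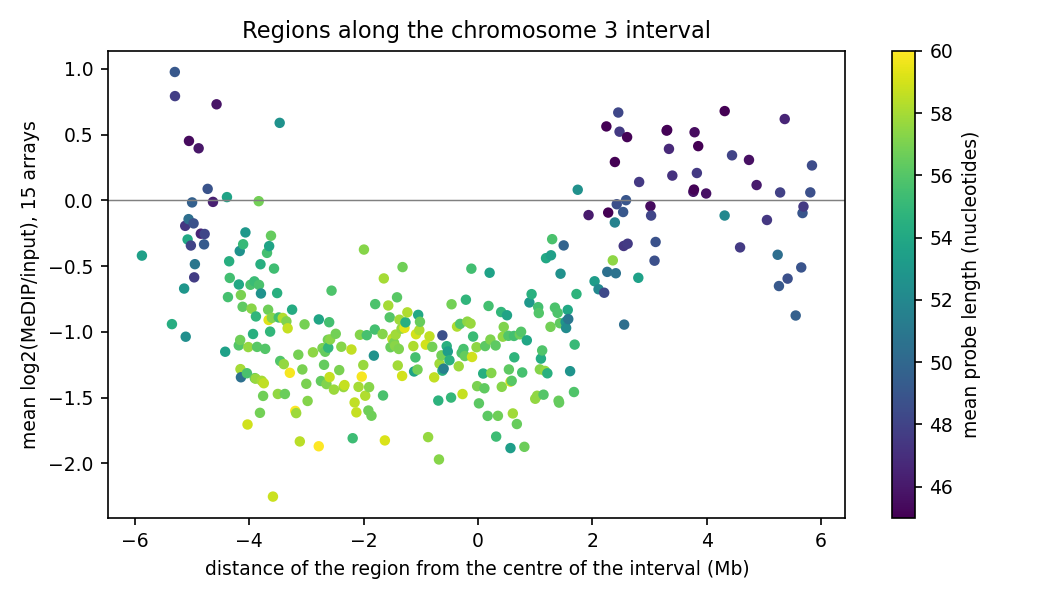
Mean log2(MeDIP/input) over 15 arrays (vertical) of the 301 regions against distance from the centre of the interval in Mb (horizontal), coloured by mean probe length in nucleotides. Values of the central stretch lie mostly near -1 and carry the longest probes, and the regions above 0 lie mostly at the ends, on shorter probes.

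Probe length followed the same course. Array designers lengthen probes in AT-rich DNA, as background to this property, and probes here ran from 45 to 60 nucleotides. The median of the regions' mean probe lengths was 55.7 nucleotides in the interval (quartiles 52.5 and 57.2) and 48.3 elsewhere. Regions with a mean of 54 nucleotides or more made up 66.8% of the interval (201 regions) and 10.2% of the rest. Within the interval, longer probes went with lower ratios (Pearson's r = -0.80 over 301 regions, -0.67 over the regions elsewhere), a description over regions that share arrays and base composition.

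**Figure D2:**
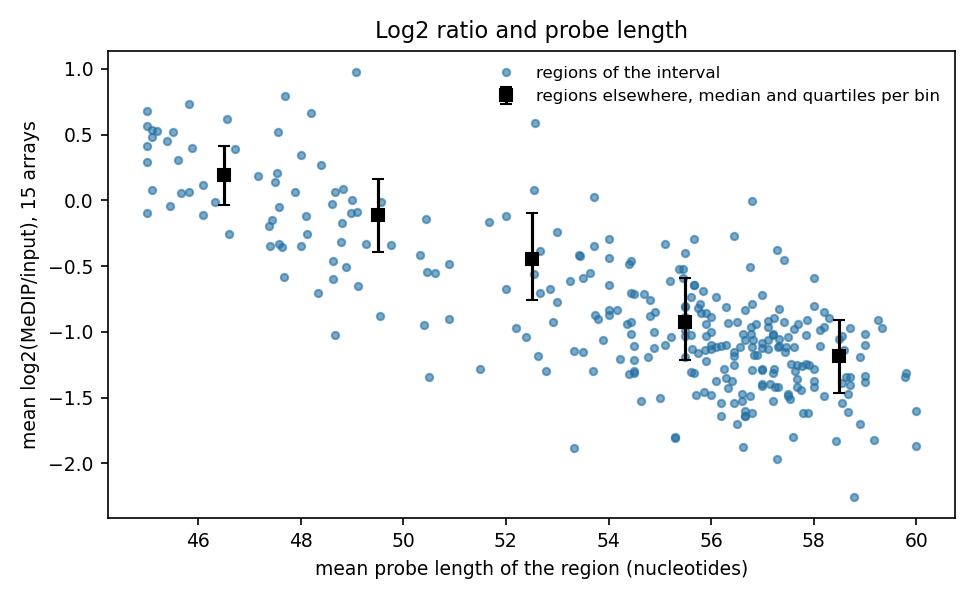
Mean log2(MeDIP/input) over 15 arrays (vertical) against mean probe length in nucleotides (horizontal). Blue points are the 301 regions of the interval and black squares with bars are medians and quartiles of the regions elsewhere in bins of 3 nucleotides; both fall with length, from 0.16 (interval) and 0.19 (elsewhere) at 45 to 48 nucleotides to -1.25 and -1.18 at 57 to 60.

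Set beside regions elsewhere of like probe length, the interval kept a smaller deficit. The medians of the rest of the array in bins of 1 nucleotide, averaged with the interval's counts as weights, gave -0.75. Length matching thus took up most of the distance between -0.03 and -0.96. A mean of bin medians and a plain median of a skewed set differ in kind, so the size of the remaining deficit is uncertain. Wider bins set median against median, and from 54 nucleotides on, where 66.8% of the interval lies, the gap was smaller. The deficit varied along the scale: from 45 to 48 nucleotides the interval's median was 0.16 against 0.19 elsewhere, from 48 to 51 it was -0.33 against -0.11, from 51 to 54 it was -0.68 against -0.44, from 54 to 57 it was -1.03 against -0.92, and from 57 to 60 it was -1.25 against -1.18. On every one of the 15 arrays the median of the interval was below the mean of bin medians, with differences from -0.30 to -0.09. The spread between arrays of a group was also larger here: the median residual SD of a region was 0.158, against 0.105 elsewhere and 0.149 in regions of like probe length.

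The highest and lowest regions show the range. At chr3:67696694-67698476, the highest, the log2 ratio averaged 0.98 over the 15 arrays and ran from 0.98 to 1.24 in controls, from 0.84 to 1.35 in the DR model, and in the treated groups from 0.82 to 0.88 (CaD), from 0.76 to 1.03 (other formula) and from 0.89 to 0.98 (LTF). Its neighbour at chr3:67699738-67701243 averaged 0.79, and the group means ran from 0.77 ± 0.06 (SD, n = 3) in controls to 0.83 ± 0.10 (SD, n = 3) in the DR model. All their probes gave MeDIP signal well above background. The lowest region, chr3:69413517-69415257, averaged -2.25, with controls at -2.17, -2.61 and -2.79, and MeDIP signal was well above background at only 22.2% to 29.6% of its probes in a group. The next lowest were chr3:72318184-72319777 at -1.97 and chr3:73569994-73570350 at -1.88, and the next highest was chr3:68427018-68428646 at 0.73.

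Some regions could not be measured well. The largest residual SDs, 0.377, 0.339 and 0.319, belonged to chr3:73571244-73571759, chr3:75279373-75280009 and chr3:69338381-69338931, which hold only 3, 3 and 4 probes. At chr3:73571244-73571759 the controls alone read -1.55, -0.75 and -2.24. Long tiled stretches near the distal end, at chr3:78648945-78665424 (92 probes), chr3:78666077-78692692 (137 probes) and chr3:78693323-78698904 (30 probes), had ratios of -0.51, -0.10 and -0.05 and were singled out after their size was seen. For these stretches the mean of the diabetic groups differed from control by 0.07 ± 0.05, 0.01 ± 0.04 and 0.04 ± 0.04 (SE), with limma adjusted p from 0.415 to 0.898.

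The first 2 regions inside, chr3:67121127-67122879 and chr3:67646380-67648167, had mean ratios of -0.42 and -0.94. The nearest 2 regions before the interval, chr3:63492904-63494347 and chr3:66819924-66821423, had -0.68 and 0.05. The last 2 inside, chr3:78814851-78816482 and chr3:78844226-78845963, had 0.06 and 0.27, and the nearest 2 after the interval, chr3:80920311-80922089 and chr3:86340004-86341413, had -0.79 and -1.19. Both regions beyond the distal bound were lower than the last 2 inside, and at the proximal side values were mixed. Most of the outside regions lie far from the bound, so they are the next regions on the array and do not flank the interval closely.

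Across groups, controls were lowest. The median of the 301 regions was -1.08, -1.06 and -1.26 on the control arrays (replicates 1 to 3) and -1.0, -1.12 and -0.84 on the DR model arrays. Treated arrays read -0.82, -0.78 and -0.93 (CaD), -1.04, -0.87 and -0.87 (other formula) and -0.74, -0.84 and -0.92 (LTF). Means ± SD (n = 3 each) were -1.13 ± 0.11, -0.99 ± 0.14, -0.84 ± 0.07, -0.93 ± 0.10 and -0.83 ± 0.09 in the same order. The DR model overlapped the controls, whereas the arrays of the 3 treated groups all lay above every control. Regions elsewhere of like probe length moved the same way, from a control mean of -0.87 ± 0.10 (SD, n = 3) to a DR model mean of -0.76 ± 0.10 (SD, n = 3). The difference from those matched regions was -0.26 ± 0.05 (SD, n = 3) for controls and -0.22 ± 0.05 for the DR model, then -0.17 ± 0.03 (CaD), -0.20 ± 0.05 (other formula) and -0.15 ± 0.05 (LTF), so that neighbouring groups overlap in their SD. Each difference sets a median against a mean of bin medians, which bears on its size. These medians were not tested.

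**Figure D3:**
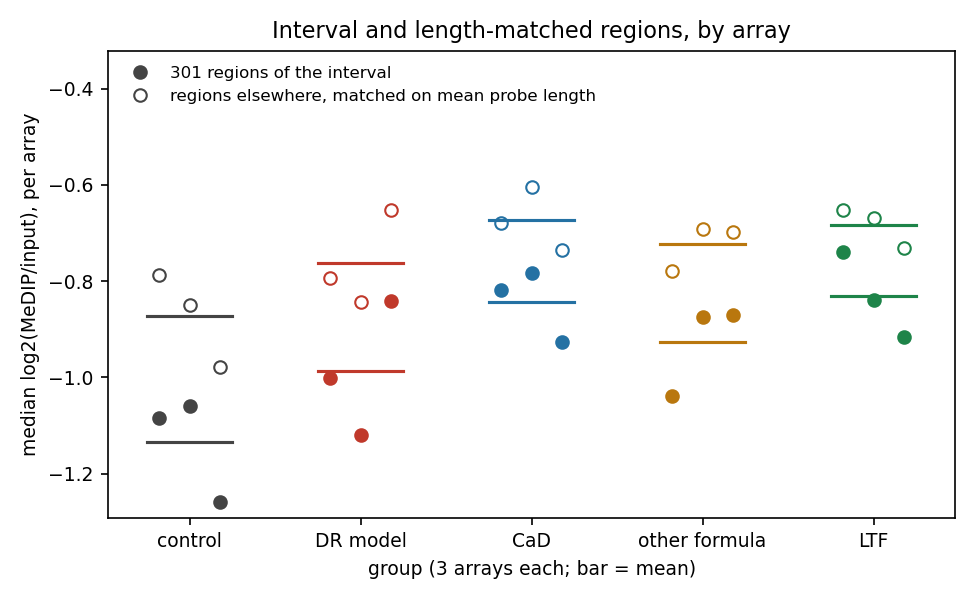
Median log2(MeDIP/input) on each array (vertical) by group (horizontal), for the 301 regions (filled) and for regions elsewhere weighted to the same probe lengths (open). Open points are weighted means of bin medians, and bars are means of 3 arrays. Filled points lie below open points in every group, and both are lowest in controls, at means of -1.13 and -0.87.

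The comparison of all diabetic animals with controls gave most of the calls. Taking the mean of the 4 diabetic groups minus control, 66 of the 301 regions were higher (21.9%) and 2 lower at an adjusted p under 0.05 (limma with Benjamini-Hochberg adjustment over all 16782 regions), where 8.71% of all regions were called, 6.35% higher and 2.36% lower. Weighted to the interval's probe lengths, 18.1% of the regions elsewhere were called higher, so most of the excess over the background went with probe length. The median difference over the 301 regions was 0.17, against 0.02 over all regions and 0.14 in length-matched regions, and 257 of the 301 (85.4%) had a difference above 0, against 56.9% of all regions and 78% after weighting. All 12 diabetic arrays lay above all 3 controls in 19 of the 301 regions (6.31%), where 2.54% of all regions and 5.17% after length weighting did so, and below all controls in 1 (all regions, 0.965%).

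Calls sat where the ratio was low and the probes long. Of the 201 regions with long probes 59 were called higher (29.4%), against 22.3% of such regions elsewhere, and of the 100 with shorter probes 7 were called higher and 2 lower. Among long probes the excess lay at 54 to 57 nucleotides (33.6%, against 20.6% elsewhere). From 57 to 60 nucleotides the interval had the smaller share (23.9%, against 27.5% elsewhere). From 69 to 75 Mb 59 of 208 were called, and between 70 and 71 Mb 12 of 29 (41.4%). The 66 regions differed by 0.16 to 0.69, with a median of 0.39. Their median was -1.45 for controls, -1.16 for the DR model and, for the treated groups, -0.96 (CaD), -1.09 (other formula) and -0.97 (LTF). All 4 diabetic group means lay above control in each of the 66, which choosing regions by the mean of these groups favours. In 48 of the 66 the DR model mean lay between control and the lowest treated mean, and in 63 of the 233 regions not called. The 66 were chosen on the same values, so these counts only describe them.

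The 3 regions with the smallest p were chr3:69038998-69040664, chr3:74147281-74148978 and chr3:73533288-73534976. The first read -1.04, -1.33 and -1.30 on control arrays, -0.88, -0.91 and -0.90 on DR model arrays, and -0.64, -0.63 and -0.73 (CaD), -0.76, -0.65 and -0.68 (other formula) and -0.53, -0.57 and -0.81 (LTF) on treated arrays. Every diabetic array lay above every control, and the difference was 0.50 ± 0.07 (SE; limma adjusted p = 0.00296). At chr3:74147281-74148978 controls read -1.72, -1.99 and -2.09 and the diabetic arrays from -1.54 to -1.12, a difference of 0.57 ± 0.08 (SE; limma adjusted p = 0.00302). At chr3:73533288-73534976 controls read -1.37, -1.36 and -1.60, the DR model -1.03, -1.18 and -1.0 and LTF -0.54, -0.66 and -0.91, and the difference was 0.51 ± 0.08 (SE; limma adjusted p = 0.00315). The groups did not overlap there either. At these 3 regions 40% to 66.7% of the probes were well above background in the controls' MeDIP channel. In the input channel, over all 15 arrays, the shares were 84.4%, 92.6% and 72% in the order named.

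The 2 regions that fell lay above 0 and toward the distal end. At chr3:75477677-75479048 controls read 0.81, 0.63 and 0.71, the DR model 0.59, 0.61 and 0.49, CaD 0.45, 0.36 and 0.41, the other formula 0.56, 0.44 and 0.41 and LTF 0.43, 0.40 and 0.54, and the mean difference was -0.24 ± 0.05 (SE; limma adjusted p = 0.0162). At chr3:78367614-78369176 controls read 0.75, 0.76 and 0.81, close to the DR model at 0.79, 0.73 and 0.69, and the treated arrays read 0.44 to 0.60; the mean difference was -0.19 ± 0.05 (SE; limma adjusted p = 0.0239). Here the DR model sat with the controls and the 3 treated groups lay below both without overlap. The next lowest p belonged to chr3:75618902-75620695, at -0.14 ± 0.06 (SE; limma adjusted p = 0.117), which did not pass.

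**Figure D4:**
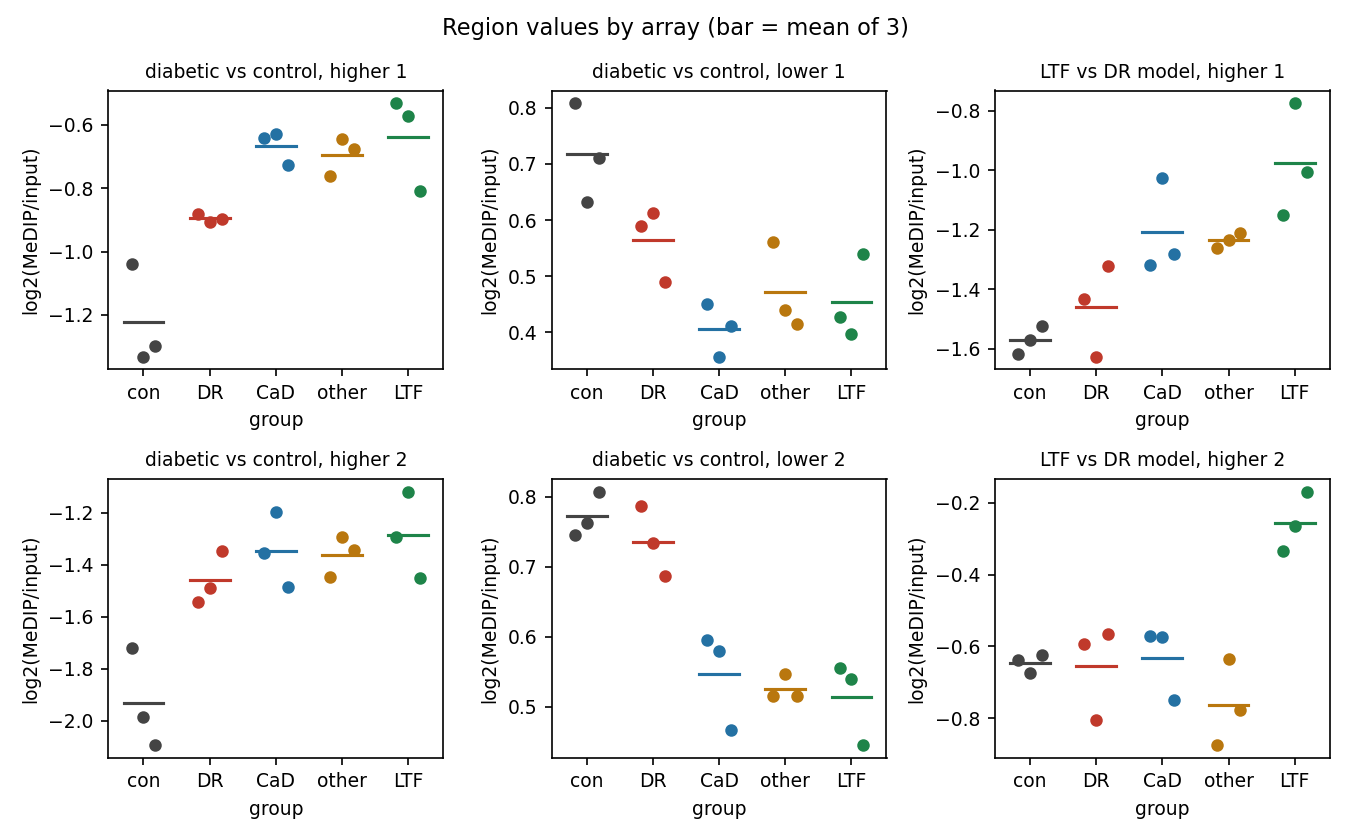
Log2(MeDIP/input) on each array (vertical, a scale of its own per panel) by group (horizontal; con, control; DR, DR model) at 6 regions, with bars at means of 3 arrays. Panels in the left column are chr3:69038998-69040664 (upper) and chr3:74147281-74148978 (lower), in the middle column chr3:75477677-75479048 and chr3:78367614-78369176, and in the right column chr3:70573582-70574783 and chr3:68657859-68659655; in the left column all diabetic arrays lie above the controls, and in the lower right panel LTF alone stands above the others.

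The count depended on which arrays were used. Without control replicate 3, 11 regions were called, all among the 68, and without control replicate 2, 45 were called, 39 of them among the 68. With scan as a random block 16 were called, all of them higher and all among the 68. Within scan day 1, which held control replicate 1, DR model replicate 2, CaD replicate 3 and the other formula, none was called and the median difference was 0.04, with a single control whose spread is assumed to be that of the other groups. Within day 3, which held control replicates 2 and 3, DR model replicates 1 and 3 and CaD replicates 1 and 2, 76 were called higher with a median difference of 0.23. Quantile normalization between arrays gave 19 calls, 17 of them among the 68. The median difference, 0.17 in the main fit, also changed with the processing. The authors' value table put this median at 0.04, quantile normalization at 0.06, normexp at 0.08 and centring within probe length at 0.09. Larger medians came from loess (0.23), from keeping outlier spots (0.18) and from probes with input well above background (0.19). The sign of the median was thus kept, but its size was not stable.

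The channels were then read apart, after the ratios had been seen, each centred on the median probe of its array. Input DNA, not MeDIP DNA, carried most of the difference. The median input signal of the 301 regions was -0.24, -0.28 and -0.25 on the control arrays and -0.45, -0.42 and -0.54 on those of the DR model, and -0.61, -0.61 and -0.44 (CaD), -0.38, -0.52 and -0.54 (other formula) and -0.60, -0.58 and -0.49 (LTF) on treated arrays. Controls averaged -0.26 ± 0.02 (SD, n = 3), and all 12 diabetic arrays, from -0.61 to -0.38, lay below them. Within scan 5 control replicates 2 and 3 read -0.28 and -0.25 and DR model replicate 1 read -0.45. The median MeDIP signal was also lower in the diabetic groups but overlapped: controls read -1.12, -1.16 and -1.33 and diabetic arrays from -1.50 to -1.30.

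By region, the input signal alone was lower in diabetic animals in 162 of the 301 regions and higher in 16 (limma adjusted p under 0.05), where 11.7% of all regions were lower and 18.3% higher, and 46.4% were lower after weighting to the interval's probe lengths. The MeDIP signal alone was lower in 26 and higher in 6, where 2.79% of all regions were lower and 4.11% higher, and 8.41% were lower after weighting. The MeDIP calls rested on few arrays: without control replicate 1, 5 were lower and 5 higher. Under a random scan block 1 was lower and 2 were higher. Without control replicate 2, CaD replicate 1 or 2, or other formula replicate 2 or 3, 13 to 16 were lower. Of the 66 regions called higher in the ratio, input signal was lower in 62, with 49 called, while MeDIP signal was higher in 22, with 3 called, and lower in 44, with 4 called. Their median differences were -0.41 in input and -0.09 in MeDIP. At chr3:69038998-69040664 input differed by -0.32 ± 0.06 (SE; limma adjusted p = 0.00345) and MeDIP by 0.12 ± 0.08 (SE; limma adjusted p = 0.347). At chr3:74147281-74148978 input differed by -0.58 ± 0.07 (SE; limma adjusted p = 0.000758) and MeDIP by -0.07 ± 0.10 (SE; limma adjusted p = 0.703). A higher ratio at these regions thus went with less input signal relative to the array, and a gain of MeDIP signal was measured at few of them. Length-matched regions elsewhere did likewise, with input at -0.20 ± 0.04 (SD, n = 3) in controls and -0.42 ± 0.07 (SD, n = 12) on diabetic arrays. The part of hybridisation, of DNA preparation or of scan in this was not tested. The input call count was 93 with scan as a random block, 118 without control replicate 1 and 107 without control replicate 3.

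**Figure D5:**
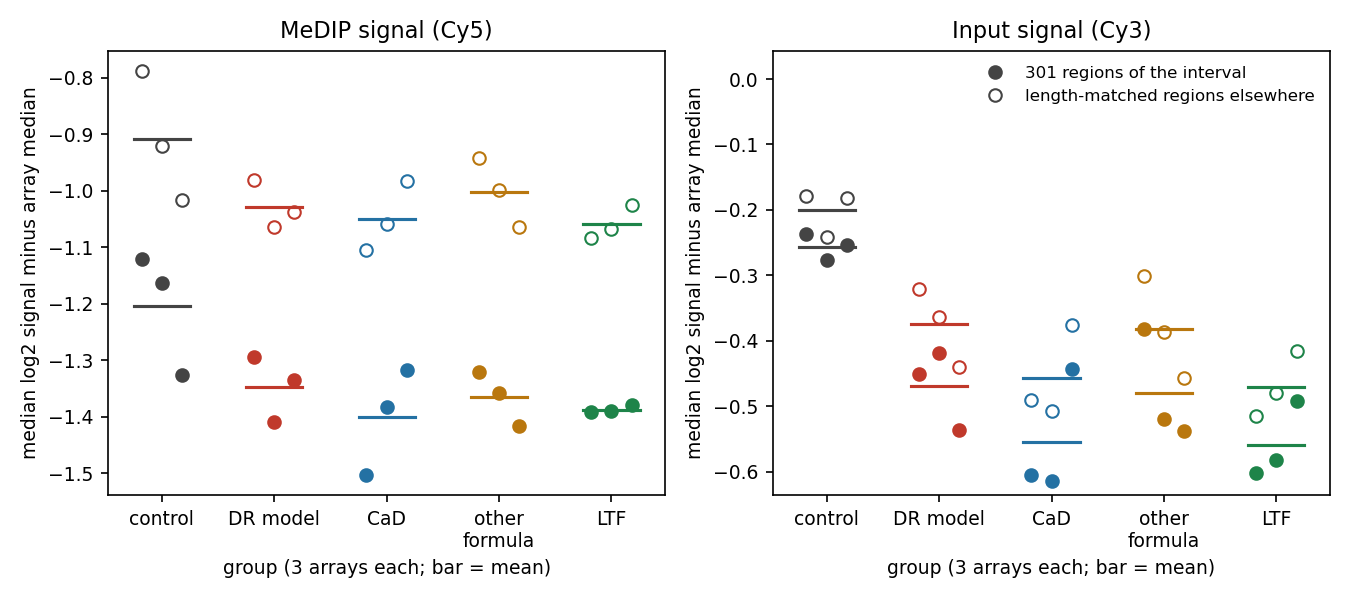
Median log2 signal minus the array's median (vertical) on each array by group (horizontal), for MeDIP (left) and input (right); filled points are the 301 regions, open points length-matched regions elsewhere, and bars means of 3 arrays. Input lies at -0.28 to -0.24 in controls and at -0.61 to -0.38 on the diabetic arrays, without overlap, while the MeDIP values of controls and diabetic arrays overlap.

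An exception was chr3:68218697-68220064, where the MeDIP channel moved. Its ratio read -0.47, -0.39 and -0.46 in controls, -0.15, -0.27 and -0.15 in the DR model and from -0.26 to -0.18 in the treated groups. The diabetic mean was higher by 0.23 ± 0.05 (SE; limma adjusted p = 0.00988), MeDIP signal by 0.24 ± 0.06 (SE; limma adjusted p = 0.0418) and input by 0.07 ± 0.05 (SE; limma adjusted p = 0.336). All its probes were well above background in each group. Its MeDIP call lies near the threshold, and most MeDIP calls of the interval were lost with scan as a random block.

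The DR model alone against control gave no call. No region of the interval passed (0% of all regions passed), and 66 had an unadjusted limma p under 0.05 (21.9%; all regions, 12.7%; length-weighted, 18.5%). The median difference was 0.14, against 0.04 over all regions and 0.10 after length matching. All DR model arrays lay above all controls in 45 regions (15%, against 8.47% of all regions and 10.4% length-weighted). They lay below in 4 (1.33%, against 3.04% of all regions and 1.27% length-weighted). The smallest p belonged to chr3:71055640-71056571, with controls at -1.40, -1.44 and -1.68 and the DR model at -0.75, -1.08 and -0.96, which differ by 0.57 ± 0.13 (SE; limma adjusted p = 0.112) and did not pass. Next came chr3:74147281-74148978 at 0.47 ± 0.11 (SE) and chr3:68218697-68220064 at 0.25 ± 0.06 (SE). In the other direction chr3:75618902-75620695 differed by -0.21 ± 0.07 (SE; limma adjusted p = 0.261), and chr3:76018111-76019481 and chr3:75477677-75479048 by -0.13 ± 0.06 and -0.15 ± 0.07 (SE). Within scan 5, which sets 1 DR model array against 2 controls with the spread pooled over all groups and batches, 1 region passed. Within day 1, a single array of each group, none passed and the median difference was -0.0078, and within day 3, 4 passed with a median of 0.19. Without the arrays scanned alone 8 passed, and without control replicate 1 or DR model replicate 2, 4 each. The median was 0.08 without control replicate 3 and 0.09 without DR model replicate 3.

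The treated groups were each set against the same 3 DR model arrays, so their differences share those values. No region passed in the CaD comparison, nor in that of the other formula (0% of all regions in each). At an unadjusted limma p under 0.05 stood 45 regions (CaD; 15% of all regions did so) and 32 regions (other formula; 15.1% of all regions did so). CaD arrays lay wholly above the DR model arrays in 25 regions (8.31%, against 6.65% of all regions and 7.92% length-weighted). They lay wholly below in 12 (3.99%, against 9.79% and 4.01%). Other formula arrays lay wholly above in 12 (3.99%, against 5.57% of all regions and 6.44% length-weighted) and wholly below in 23 (7.64%, against 13% and 6.29%). The median difference was 0.08 (CaD) and 0.02 (other formula), and 0.08 and 0.04 in length-matched regions. Neither median was stable. CaD had a median of 0.0046 within scan 6 (2 CaD arrays and 1 DR model array), 0.04 without DR model replicate 2, 0.05 without CaD replicate 2 and 0.14 without DR model replicate 3, and -0.0066 with quantile normalization. The other formula's median was -0.02 without DR model replicate 2, 0.08 without DR model replicate 3 and -0.04 with quantile normalization. For CaD the smallest p were at chr3:72975166-72976913, with 0.35 ± 0.10 (SE; limma adjusted p = 0.181), chr3:69516002-69517660, with 0.39 ± 0.12 (SE), and chr3:73732186-73733806, with 0.39 ± 0.12 (SE). CaD read -0.75, -0.79 and -1.03 at the first of these and the DR model -1.22, -1.38 and -1.02, so that the arrays overlapped. In the lower direction they were chr3:78367614-78369176 at -0.19 ± 0.06, chr3:77742025-77743676 at -0.21 ± 0.07 and chr3:67696694-67698476 at -0.29 ± 0.11 (SE). For the other formula they were chr3:69364259-69365813 at 0.35 ± 0.12, chr3:73680884-73682492 at 0.30 ± 0.10 and chr3:71503016-71504770 at 0.45 ± 0.16 (SE), and in the lower direction chr3:78367614-78369176 at -0.21 ± 0.06, chr3:77742025-77743676 at -0.23 ± 0.07 and chr3:69531380-69533079 at -0.19 ± 0.06 (SE). None of these passed. Leaving out DR model replicate 3 brought 26 calls for CaD and 13 for the other formula.

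LTF against the DR model gave 5 regions higher and none lower at a limma adjusted p under 0.05 (1.66% of the interval), where 0.9% of all regions were called, 0.238% higher and 0.661% lower. Weighted to the interval's probe lengths, 0.474% of regions elsewhere were called higher. Called or not, LTF arrays lay wholly above the DR model arrays in 41 regions (13.6%, against 6.71% of all regions and 11.5% length-weighted). They lay wholly below in 18 (5.98%, against 13.6% of all regions and 6.13% length-weighted), so both shares were near those of regions of like probe length. The 5 were chr3:70573582-70574783 (0.48 ± 0.10), chr3:68657859-68659655 (0.40 ± 0.08), chr3:69708965-69710684 (0.50 ± 0.10), chr3:69096537-69098321 (0.50 ± 0.11) and chr3:72234287-72236075 (0.58 ± 0.12), each with its SE, and limma adjusted p from 0.0398 to 0.0408. MeDIP signal was well above background at only 20% of the DR model's and 30% of the LTF group's probes at chr3:69708965-69710684, at 21.2% and 30.3% at chr3:72234287-72236075 and at 37.5% and 58.3% at chr3:70573582-70574783, so these differences rest largely on dim probes. The shares were 50% and 60% at chr3:69096537-69098321 and 66.7% and 74.1% at chr3:68657859-68659655. LTF read -1.15, -0.78 and -1.01 at the first, against -1.43, -1.63 and -1.32 in the DR model. At chr3:68657859-68659655 LTF read -0.34, -0.27 and -0.17, while the other 12 arrays, controls included, read from -0.87 to -0.57. There LTF alone stood above the rest. Read apart, input signal was lower with LTF than in the DR model in 38 regions of the interval and higher in 13 (limma adjusted p under 0.05). Of all regions 4.5% were lower and 12.6% higher, and 11.9% were lower after length weighting. MeDIP signal was lower in 10 and higher in 9, where 3.01% of all regions were lower and 7.07% higher, and 3.9% were lower after weighting.

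In the lower direction chr3:75550424-75552066 read -0.58, -0.68 and -0.44 with LTF and -0.37, -0.23 and -0.24 on DR model arrays; the difference, -0.28 ± 0.07 (SE; limma adjusted p = 0.0564), did not pass. Nor did chr3:74445148-74446689, at -0.35 ± 0.09, or chr3:78367614-78369176, at -0.22 ± 0.06 (SE). The LTF calls were fragile. None was left without DR model replicate 1 or 2, without any of the LTF replicates, without CaD replicate 1 or 2 or other formula replicate 2 or 3, or with scan as a random block; without DR model replicate 3 there were 34. Without CaD replicate 3, control replicate 2 or other formula replicate 1, 1 to 2 were left. The direction also turned with the processing: quantile normalization gave 3 higher and 5 lower, centring within probe length 1 and 4, the authors' deposited values none and 2, probes with input well above background 1 and 3, and probes with both channels well above background 3 and 7. LTF also had most outlier spots, left out of all means: 110 to 176 within the interval per array, against 1 to 70 on the arrays of the other groups, and LTF was scanned apart. The part of either in the result was not tested. At chr3:68657859-68659655, with only probes well above background in both channels on all arrays, the difference was -0.11.

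Among all 5 groups, 26 regions (8.64%) differed by the limma F test at an adjusted p under 0.05, where 3.46% of all regions and 6.87% after length weighting did so. An unadjusted limma F test p under 0.05 was found in 122 (40.5%, against 24.8% of all regions and 34.5% length-weighted). The smallest p was again at chr3:69038998-69040664 (F = 16.9, limma adjusted p = 0.0144), followed by chr3:69708965-69710684, chr3:72379133-72379663, chr3:73533288-73534976, chr3:71137523-71139031 and chr3:72234287-72236075, with F from 13.7 to 16.2. They share a pattern: control had the lowest mean and LTF the highest in all 6. At chr3:69708965-69710684 the means (SD, n = 3 each) were -1.73 ± 0.07 for control, -1.41 ± 0.27 for the DR model, -1.21 ± 0.09 (CaD), -1.30 ± 0.08 (other formula) and -0.91 ± 0.08 (LTF). At chr3:71137523-71139031 they were -2.17 ± 0.19, -1.76 ± 0.22, -1.42 ± 0.20, -1.52 ± 0.11 and -1.32 ± 0.16 in the same order. At chr3:72379133-72379663, which has 4 probes, they were -1.81 ± 0.06, -1.39 ± 0.23, -1.32 ± 0.14, -1.05 ± 0.18 and -0.91 ± 0.22. Over all 301 regions control had the lowest of the 5 means in 200 (66.4%; all regions, 34.9%), and CaD had the highest in 119 (39.5%; all regions, 24.3%) and LTF in 89 (29.6%; all regions, 18.4%). The shares over all regions were not weighted to the interval's probe lengths. These orders were not tested, and neighbouring means often overlapped in their SD. With scan as a random block the limma F test called none of the 301 regions, with 66 at an unadjusted p under 0.05. Its count was 4 without control replicate 3, 73 without DR model replicate 3, 40 without DR model replicate 2, and between 8 and 17 without control replicate 2 or any single array of the treated groups.

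Signal strength limited what could be read. MeDIP signal was well above background at 58.8% to 74.5% of the interval's probes on an array, against 77.6% to 90.0% of all probes. Input signal was so at a mean of 92.5% of the interval's probes on control arrays and 86.8% on diabetic arrays. Over all probes the input means were 95.1% and 94.0%, so part of the lower input signal lies near background. Regions where under 50% of the probes passed that mark numbered 82 for control (27.2%), 84 for the DR model (27.9%), and 60 (CaD), 50 (other formula) and 44 (LTF) after treatment, against 1.09% to 2.41% of the regions elsewhere. Among the 66 regions called higher, 28 were of this kind in controls and 17 with LTF. One of the 66, chr3:70215589-70215993, had no probe well above background on any control or other formula array, so its ratio there is only a bound and no fold is given. With only probes well above background in both channels on all arrays, 223 regions could be formed, and 42 were higher and 2 lower in diabetic animals, at 8.27% of all regions called.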

How the data were processed

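DNA methylation was measured on 15 two-colour arrays. The deposited files are scanner output of Feature Extraction 11.0.1.1, per the file headers, with probe positions on rn4 (RGSC 3.4). The deposited values are intensity per spot and channel, where processed signals are background-subtracted and linearly dye-normalised, and a log10 ratio of Cy5 (MeDIP, per the labels) over Cy3 (input). The authors' deposited value table served as an alternative and was taken to hold log2 values, an assumption, because no source used here states its scale, centring or direction. The submitters' processing notes name limma without saying for what.

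Log2 of Cy5 over Cy3 processed signal was computed for 172669 probes after leaving out 6856 control spots and, on each array, outlier spots, and each array was centred on its median, without loess or quantile steps. Probes with gaps of at most 500 bp formed 17668 runs, of which 884 had under 3 probes and 2 were not measured on every array. In the interval, 315 runs were formed and 14 had too few probes. Region means were fitted over all 15 arrays with limma 3.58.1 (lmFit, eBayes) in R 4.3.3, with 1 mean per group, a shared spread and Benjamini-Hochberg adjustment over 16782 regions at 0.05, in 6 comparisons. The data.table package was version 1.17.8 and jsonlite 2.0.0. Single channels were fitted likewise. Matched medians are bin medians of regions elsewhere, in bins of 1 nucleotide of mean probe length, averaged with the interval's counts as weights. Weighted shares average the bin shares likewise. The interval's own values are plain medians and shares. The fit was also run on simulated data with independent noise on each array and no scan effect. The arrays here had a scan correlation of 0.390, so that run cannot show how the fit behaves under it. Scans were told apart by identical time stamps in the headers.

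The regions, lists and tests were chosen with earlier results of these data known. Regions named were, per comparison, the 3 with the smallest p in each direction (6 for the F test), the 3 highest, the 3 lowest, the 3 most variable, and those at the edges. Region sequences and genes were not used here, since the files give no probe sequence and no rn4 genome was at hand. The number of arrays limits the precision.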

Additional observations from a re-analysis of the deposited data

How the results depend on the processing

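Of the alternative values computed for the named regions, 938 kept their direction and side of the threshold, 95 lost the call, 28 gained one and 4 reversed. The reversed ones were chr3:69516002-69517660 for CaD (-0.0054) and chr3:68657859-68659655 for LTF (-0.11) with both channels well above background, and chr3:67696694-67698476 for CaD (0.0057) with scan as a fixed block and within scan 6, where the same arrays give the value. The cause was not tested.

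Counts of called regions are given in the order F test (26), DR model (0), CaD (0), other formula (0), LTF (5) and diabetic mean (68). Counts that changed little are left out. Normexp gave 56 for the F test and 101 for the diabetic mean, only 45 of them among the 68. Quantile normalization gave 11 for the F test, 8 for LTF and 19 for the diabetic mean. Loess gave 81 for the F test, 23 for the DR model and 145 for the diabetic mean. Centring within probe length gave 40 for the diabetic mean. The authors' value table gave 2 for the other formula, 2 for LTF and 42 for the diabetic mean. Keeping outlier spots gave 38 for the F test, 10 for LTF and 80 for the diabetic mean, and gaps up to 250 bp gave 9 for LTF. With both channels well above background, 5 were called for the other formula, 10 for LTF and 44 for the diabetic mean. Scan as a random block (correlation 0.390) gave 0 for the F test, 0 for LTF and 16 for the diabetic mean, and as a fixed block 1 for the DR model, which is the same value as within scan 5 (1 DR model array against 2 controls). Within batches the spread is pooled over all groups and batches, and a lone array is assumed to vary like the other groups. Within day 1, with 1 control, 1 DR model and 1 CaD array, the other formula had 19, CaD had 1 and the diabetic mean had 0 (56 at an unadjusted limma p under 0.05), and within day 3 there were 4 for the DR model. Leaving out the arrays scanned alone was chosen after seeing the data, like both channels well above background and the single channels. It gave 47 for the F test, 8 for the DR model and 0 for LTF (52 at an unadjusted limma p under 0.05). The diabetic mean then had 95, 59 of them among the 68. The MeDIP channel's 32 calls became 3 with scan as a random block and 20 without the arrays scanned alone, and the input channel's 178 became 93 with scan as a random block.

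Leaving out 1 array at a time gave 4 to 73 calls for the F test, 0 to 4 for the DR model, 0 to 26 (CaD), 0 to 13 (other formula) and 0 to 34 (LTF) in the treated groups, 11 to 98 for the diabetic mean, 10 to 42 for MeDIP alone and 107 to 194 for input alone. The median of the interval minus the weighted mean of bin medians elsewhere, -0.20, ran from -0.21 to -0.19 without 1 array. It was -0.073 with normexp, -0.11 with loess, -0.086 centred within probe length, -0.12 in the authors' value table and -0.25 with input well above background. This difference stayed below 0 in all of these.

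Same-numbered arrays of different groups had residual correlations of -0.42 to 0.33 over 30 pairs (median -0.05). Differently numbered arrays had -0.41 to 0.33 over 60 pairs (median 0.009), so no pairing by replicate number was seen. With the replicate block the F test called 7, LTF 0 and the diabetic mean 53. Leaving out repeated probe sequences was not run, since the files give no sequences.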
